A study of Mus musculus with 6 samples.

Results

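Pim1 and Stam were 2 of the 445 mouse genes with named probes for the opposite strand on a custom oligonucleotide array, in most cases together with the annotated strand. A further 39878 spots of the array carried masked probe names and were not used, so these genes are a part of the design. The array was built to look for natural antisense transcripts, RNAs made from the strand opposite to an annotated gene, and its antisense-directed probes are called AFAS probes. The genes were chosen by an earlier look at the same arrays, in which 1 AFAS probe of each was among those with the largest excess in mammary tumors. The difference between tumors and normal glands was therefore used in the choice, and for every probe of these genes it is given as a description, with no p-value. Where counts of calls include these probes, nothing is read from them. All named probes of both genes were taken, 9 in number: 2 AFAS probes and 1 sense probe for Pim1, and 5 AFAS probes and 1 sense probe for Stam. The Pim1 sense probe carried the same RefSeq accession as its AFAS probes. The Stam sense probe was described in the files as a full-length cDNA clone from neonate cerebellum and was linked to Stam only by its place among the entries of the Stam AFAS probes, so its values may not be those of the Stam mRNA.

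The RNA was from GRS/A mice, a strain in which mouse mammary tumor virus (MMTV) causes mammary tumors, with 4 samples of tumor and 2 of normal mammary gland. No treatment, transgene or age was given in the labels, which also do not tell how many mice were used, so the spread between samples may be partly technical. The extraction protocol in the labels names brain for every sample, whereas titles, design text and paper name mammary tissue. Total RNA was copied from random primers into Cy3-labelled first-strand cDNA and hybridized, 1 array per sample. Signals are in the arbitrary units of the scanner software, scaled by the authors, with values below 5 or not above background set to a floor of 5.

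Pim1 encodes a cytoplasmic and nuclear serine/threonine kinase that was discovered as a site where retroviruses insert in mouse lymphomas. Its gene is switched on by cytokine receptors through JAK kinases and STAT transcription factors, and the kinase acts on cell cycle and survival proteins. Stam encodes an adaptor with an SH3 domain and an ITAM motif that associates with JAK kinases below cytokine receptors, and that joins Hgs on endosomes to sort ubiquitinated receptors toward degradation.

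Each probe was 60 bases long. Shown 5′ to 3′ as they lie on the array are both AFAS probes of Pim1 and, for Stam, the AFAS probe with the largest difference between tumors and normal glands (probe 1), the one with the smallest spread among tumors (probe 3) and the one with a negative difference (probe 4). Capitals mark the triplets TTA, CTA and TCA, which read as stop codons on the mRNA strand. Probe numbers are those of the array design. Stam AFAS probe 1 is shown by its first 30 bases.
Pim1 AFAS probe 1: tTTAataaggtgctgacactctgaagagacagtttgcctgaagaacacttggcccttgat
Pim1 AFAS probe 2: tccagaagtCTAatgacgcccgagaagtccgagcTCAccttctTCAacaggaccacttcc
Stam AFAS probe 1: aatgtgacaCTAtaacaggacaatgccttc
Stam AFAS probe 3: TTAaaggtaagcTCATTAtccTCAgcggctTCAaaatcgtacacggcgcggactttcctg
Stam AFAS probe 4: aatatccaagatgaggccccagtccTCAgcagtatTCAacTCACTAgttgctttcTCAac

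Over its full length, Pim1 AFAS probe 1 left 2 of the 3 mRNA reading frames free of stop codons and Pim1 AFAS probe 2 left 1. Stam AFAS probes 2 and 3 each left 2 frames open and Stam AFAS probe 4 left 1, while Stam AFAS probes 0 and 1 left 0 frames open. The probe with the largest excess in tumors thus had open frames in Pim1 but none in Stam. No sense probe shared a stretch of 12 bases with the complementary strand of an AFAS probe of its gene. The Pim1 probes for both strands thus read different parts of the gene. For Stam this cannot be told, because its sense probe was linked by place alone. None of the other 2153 probes tied to the table shared 20 bases with any of the 9 on either strand. The GC content of the Pim1 probes was 43.3% to 53.3% and that of the Stam probes 35.0% to 48.3%, around the median of 45.0% over all AFAS probes.

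On the tumor arrays the antisense-directed signal was measurable with almost every probe. Of the 36 spots of the 9 probes on the 4 tumor arrays, 34 were flagged as well above background by the scanner software. Both exceptions were spots of Stam AFAS probe 2, in tumors 2 and 4. Over all named probes the same flag was given to 67.18% to 89.55% of AFAS probes and 92.82% to 98.27% of sense probes per tumor array. The 36 spots include those of the sense probes and of the AFAS probes chosen as high in tumors, so nothing particular to these genes is read from the count. The raw mean signal of Pim1 AFAS probe 1 was 3.04 to 6.33 times the local background, that of Stam AFAS probe 1 was 6.77 to 12.02 times, and that of the Pim1 sense probe 17.9 to 38.7 times. The error that the software assigned to a spot was 10% to 11.1% of the signal for 8 of the probes, and 10.3% to 57.2% for Stam AFAS probe 2. Flags of this kind were not used here for normal glands, whose scanner output was not analysed.

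The 2 AFAS probes of Pim1 gave different pictures. Pim1 AFAS probe 1 had signals of 188, 269.5, 135 and 309 in tumors 1 to 4 and the floor value of 5 in normal glands 1 and 2. The groups did not overlap, and all of the measured signal lay in tumors. With the floor counted as 5, the log2 difference was 5.42 (SE 0.47, n = 4 and 2). With a floor of 20 in place of 5 it was 3.42, so its size depended on the floor, and no fold is given. Over all tied probes, values at the floor made up 0.789% to 12.9% of the tumor arrays and 24.4% and 31.1% of the arrays of normal glands, and the part of this in the difference was not tested. Pim1 AFAS probe 2 had signals of 153, 141, 191 and 117 in the tumors and of 82.0 and 62.6 in normal glands. Here too every tumor was above both normal glands, but the normal glands were well off the floor and the log2 difference was 1.05 (SE 0.40).

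On the sense strand Pim1 gave strong signals in both groups. The Pim1 sense probe had signals of 2364, 1775, 3215 and 1171 in tumors 1 to 4, and of 1412 and 817 in normal glands 1 and 2. The groups overlapped, because tumor 4 was below normal gland 1. The log2 difference was 0.89 (SE 0.55), close to the median of 0.91 over all 404 sense probes.

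Stam AFAS probe 1 had the largest excess in tumors of the 5 AFAS probes of Stam. Its signals were 584, 493, 404 and 630 in tumors 1 to 4, 27.4 in normal gland 1 and at the floor of 5 in normal gland 2. All tumors were far above both normal glands, which themselves differed. The log2 difference was 5.47 (SE 0.71); it was 4.25 without normal gland 2, 6.70 without normal gland 1 and 4.47 with a floor of 20.

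The other 4 AFAS probes of Stam did not share this difference in size. Stam AFAS probe 0 had signals of 160, 304, 186 and 219 in tumors against 145 and 137 in normal glands, a log2 difference of 0.58 (SE 0.42). Stam AFAS probe 3 had 143, 111, 123 and 134 in tumors against 78.3 and 54.7, a difference of 0.96 (SE 0.38). With both probes every tumor was above both normal glands, by a small margin for tumor 1 with probe 0. Stam AFAS probe 4 had 236, 322, 467 and 181 in tumors against 460.3 and 454 in normal glands, and its log2 difference of -0.69 (SE 0.49) was the only negative value of the 9 probes. Tumor 3 was at the level of the normal glands and the other 3 tumors were below it. Stam AFAS probe 2 was near the limit of detection, with signals of 139, 9.20, 33.8 and 9.47 in tumors and of 5 and 27.3 in normal glands. Its log2 difference of 1.11 (SE 1.31) was within the error, the groups overlapped, and it was -0.11 without normal gland 1.

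The Stam sense probe had signals of 810, 530.0, 500.2 and 553 in tumors, and of 443 and 410.2 in normal glands. All tumors were above both normal glands, with tumor 1 apart from the other 3 in the deposited signals, though it was not the highest after median scaling. The log2 difference was 0.46 (SE 0.43), below the median of 0.91 over all sense probes.

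**Figure D1:**
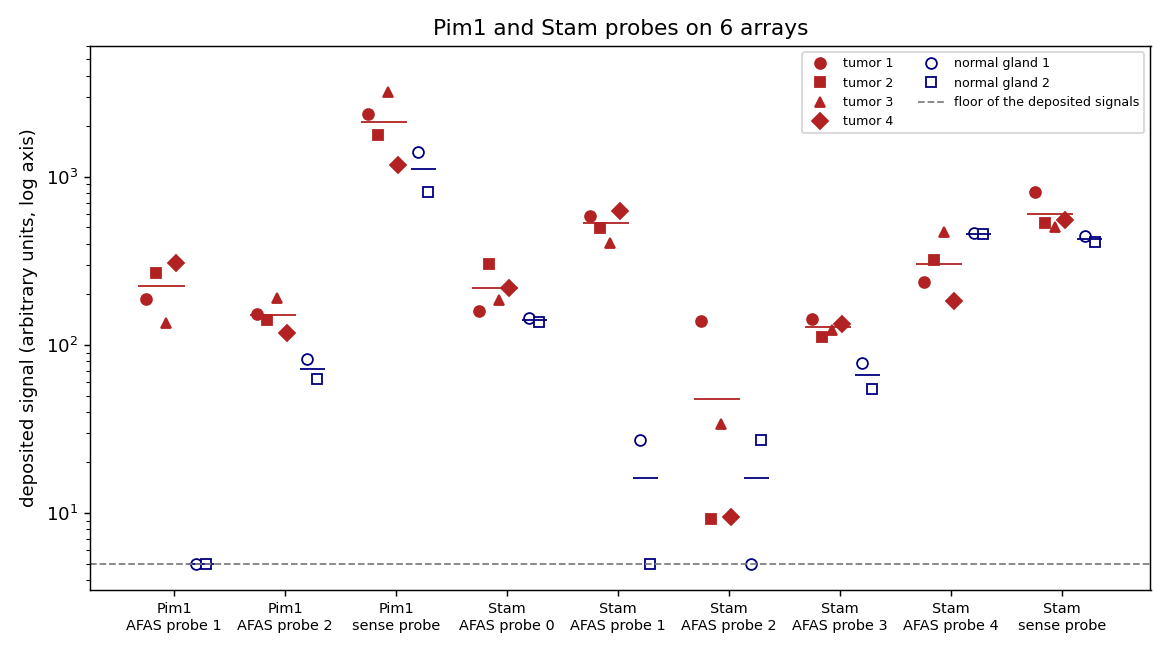
Deposited signal in arbitrary units on a log axis for the 7 AFAS probes and 2 sense probes, with 1 filled point per tumor (4) and 1 open point per normal gland (2). Short horizontal lines are group means and the dashed line is the floor of 5. Tumors and normal glands are far apart for Pim1 AFAS probe 1 and Stam AFAS probe 1, with 3 of these 4 values of normal glands at the floor, and lie close together or overlap for the other probes.

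Set against all probes of their strand, Pim1 and Stam stood out by 1 AFAS probe each. Over all 1750 AFAS probes the median log2 difference was 0.44, and 0.457% were called higher in tumors (limma, adjusted p at most 0.05); 2 of the 7 AFAS probes of Pim1 and Stam were among them, which follows from how the genes were chosen. Every tumor was above both normal glands for 21.6% of AFAS probes and for 5 of these 7. Of sense probes, 14.4% were called higher and 0 of the 2 were among them, while 42.6% had every tumor above both normal glands, among them the Stam sense probe. The AFAS probes called numbered 8 or 15 without tumor 1 or 2, and 0 without tumor 3, tumor 4 or any normal gland, where those of Pim1 and Stam numbered 0 as well; they numbered 0 without tumor 1 and 1 without tumor 2. The sense probes called, 59 in both directions, numbered 1, 48, 89 and 0 without tumors 1 to 4, and 14 and 0 without normal glands 1 and 2. Nothing is read from these counts, since the same contrast selected the genes.

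The general level of the arrays also enters. The median log2 difference over all probes was 0.50 with the signals as deposited and lay between -0.05 and 0.23 after the 4 other scalings. Under these, the log2 difference was 4.38 to 5.15 for Pim1 AFAS probe 1 and 4.75 to 5.21 for Stam AFAS probe 1. It was 0.44 to 0.62 for the Pim1 sense probe and 0.06 to 0.19 for the Stam sense probe. Under the same scalings the median was 0.50 to 0.64 over all sense probes and -0.13 to 0.17 over all AFAS probes. The Pim1 sense probe thus stayed near the median of its strand and the Stam sense probe below it. The log2 difference was 0.65 to 0.78 for Pim1 AFAS probe 2 and 0.18 to 0.31 for Stam AFAS probe 0. For Stam AFAS probes 2, 3 and 4 it was 0.63 to 0.85, 0.56 to 0.69 and -1.10 to -0.96. All 9 differences kept their sign under these scalings. In bulk tissue, a signal that is lower because fewer cells of a type were present cannot be told apart from less RNA per cell.

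**Figure D2:**
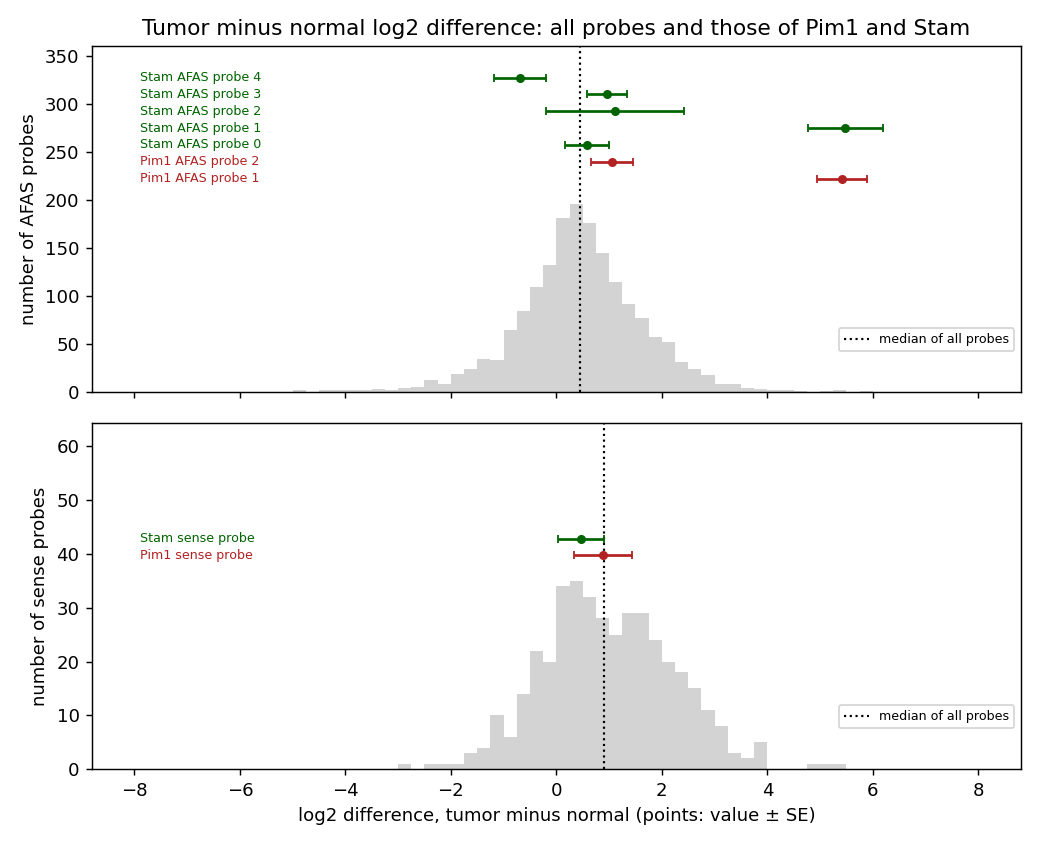
Histograms of the tumor minus normal log2 difference of all AFAS probes (top, 1750) and all sense probes (bottom, 404), with the median as a dotted line. Points with bars are the values ± SE of the Pim1 (red) and Stam (green) probes. Pim1 AFAS probe 1 at 5.42 and Stam AFAS probe 1 at 5.47 lie at the far right of the AFAS probes and the other 7 points lie among the bulk of their strand.

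The 4 tumors also differed among themselves, for most of these probes less than the median of their strand. The SD of the log2 signals over the tumors was 0.157 to 0.587 for the AFAS probes, apart from Stam AFAS probe 2 (1.86). Its median was 0.82 over all AFAS probes with no tumor at the floor. For the sense probes it was 0.62 (Pim1) and 0.315 (Stam), against a median of 0.72 over sense probes with no tumor at the floor. These medians were not matched on signal level and include probes near the floor. Also, 1 AFAS probe of each gene was chosen as high in tumors, so nothing particular to these genes is read from the spread. Tumors 3 and 4 were hybridized on the same slide, and for Pim1 they differed in opposite directions by probe. The signal of tumor 3 was 0.44 times that of tumor 4 with Pim1 AFAS probe 1, but 1.64 times with Pim1 AFAS probe 2 and 2.75 times with the sense probe. These ratios were 0.40 to 0.53, 1.34 to 1.98 and 2.33 to 3.33 over the deposited signals, 4 other scalings, the unscaled scanner signals and normexp correction (the ratio and these alternatives were chosen after seeing the data). The directions were the same in all 7. Forms that differ by 1 factor per array change all ratios alike, so they could not alter the contrast between probes. Only quantile normalization and normexp correction could alter it. The order of all 4 tumors was less stable. With the deposited signals Pim1 AFAS probe 2 and the sense probe both ran from tumor 3 through tumors 1 and 2 to tumor 4, and AFAS probe 1 the other way round, but in the unscaled scanner signals both AFAS probes were highest in tumor 2 (328 and 171).

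Stam AFAS probes also differed in this respect. Tumor 3 over tumor 4 was 0.64 with Stam AFAS probe 1 and 2.57 with Stam AFAS probe 4, and ranged from 0.58 to 0.78 and from 1.93 to 3.12 over the same 7 forms of the signals. With Stam AFAS probes 2 and 3 and the sense probe the highest deposited signal was that of tumor 1, with probe 0 that of tumor 2, with probe 4 that of tumor 3 and with probe 1 that of tumor 4. For probe 1, tumors 4 and 1 were within their combined spot error, 7.88% apart against 14.2%, and in the unscaled signals tumor 1 was the higher (610.0 and 597). No neighbouring tumors differed beyond their spot error with Stam AFAS probe 3, where the highest tumor was 1.29 times the lowest. The highest was 1.56 times the lowest with Stam AFAS probe 1 and 2.30 times with Pim1 AFAS probe 1, a spread that is not independent of the choice of these probes as high in tumors. With Stam AFAS probe 2 tumors 2 and 4 were not well above background, and the highest tumor was 2.80 times the lowest after normexp correction.

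**Figure D3:**
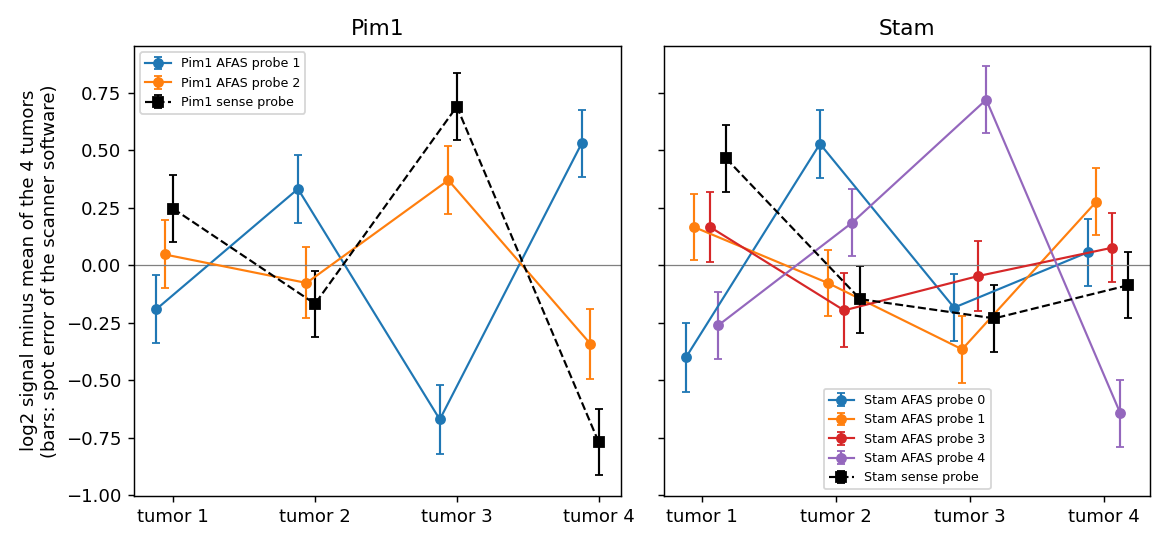
Log2 signal in each tumor minus the mean of the 4 tumors for Pim1 (left) and Stam (right), with the spot error of the scanner software as bars. Circles are AFAS probes and black squares sense probes. Stam AFAS probe 2, with 2 tumors not well above background, is left out. From tumor 3 to tumor 4 Pim1 AFAS probe 1 goes up while Pim1 AFAS probe 2 and the sense probe go down; in the right panel Stam AFAS probe 1 goes up and Stam AFAS probe 4 goes down. The signals are those deposited, and the order of the other tumors depended on the scaling.

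The probes of other genes with the most similar pattern were found by the root mean square (RMS) difference of log2 signals over the 6 arrays, each probe centred on its mean, given here in parentheses in log2 units. For Pim1 AFAS probe 1 these were AFAS probes of Hrk, a pro-apoptotic BH3-only gene (0.43), of Nr2c2, an orphan nuclear receptor (0.55), and of Cdkn1b, a cyclin-dependent kinase inhibitor (0.75), all of them listed at 5 in both normal glands. The Hrk probe had signals of 121, 328, 74.97 and 363 in tumors 1 to 4. For Stam AFAS probe 1 the nearest were AFAS probes of Cd86, a co-stimulatory ligand of antigen-presenting cells (0.37), of Pim1, its probe 1 (0.76), and of Krt18, a keratin of luminal epithelium (0.77). The Cd86 probe had signals of 780, 441, 673 and 803 in tumors, 21.6 in normal gland 1 and 5 in normal gland 2. These probes were picked for likeness over all 6 arrays, the contrast between the groups included, so a shared course is built in. For the Pim1 sense probe the nearest sense probes were those of Crabp2, a retinoic acid binding protein (0.11), Cd27, a lymphocyte receptor (0.29), and Csf2ra, the receptor chain that binds GM-CSF (0.29). For the Stam sense probe the sense probe of Pms2, a mismatch repair gene (0.19), was among the 3 nearest.

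The array also carried other genes of the pathways in which Pim1 and Stam act. Of 141 genes in 6 lists, 43 had a sense probe and 47 had AFAS probes, 194 in number. On the sense strand 8 genes rose in tumors and 0 fell (limma, adjusted p at most 0.05), which is 18.6% of the 43 against 14.4% of all sense probes called higher. On the antisense strand 1 gene rose and 0 fell, by 1 probe or 0.516% of the 194 against 0.457% of all AFAS probes called higher. At an unadjusted limma p of at most 0.05, 21 listed sense probes passed, 2 of them lower in tumors, which is 48.8% against 38.4% of all sense probes. On the antisense strand 25 passed, 4 of them lower, which is 12.9% against 16.2% of all AFAS probes. The methods' t-test, run on unlogged signals because the scale is not given in the paper, called 8 listed sense probes (18.6% against 15.8% of all) and 14 AFAS probes of 11 genes (7.22% against 9.09% of all) before adjustment, and 0 after it. Every tumor was above both normal glands for 44.2% of the listed sense probes against 42.6% of all sense probes, and for 21.1% of the listed AFAS probes against 21.6% of all. These shares lie near the background, and nothing is called particular to the lists. The median log2 difference of listed probes was 1.27 on the sense and 0.48 on the antisense strand, beside 0.91 and 0.44 over all probes.

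Among the cytokine ligands, 2 of 10 genes rose on the sense strand, beside 14.4% of all sense probes called higher. Lif, a cytokine of the interleukin 6 family, had signals of 518, 139.7, 334 and 599 in tumors, 22.4 in normal gland 1 and the floor of 5 in normal gland 2. No tumor came near the normal glands, and the log2 difference was 5.03 (SE 0.81, limma adjusted p 0.0207). Il10, an anti-inflammatory cytokine, had 21.9, 37.4, 15.7 and 27.5 in tumors and was listed at 5 in both normal glands (adjusted p 0.0299), with 3 of the 4 tumor spots well above background. With a floor of 20 its log2 difference was 0.37 in place of 2.29 and the call was lost. On the antisense strand 0 of 11 ligand genes passed (limma; 4 of 42 probes at an unadjusted p of at most 0.05, where 16.2% of all AFAS probes passed). The AFAS probes with the smallest p were one of Flt3l, a growth factor of dendritic cell progenitors, with 128, 675, 35.9 and 141 in tumors and 1818 and 2142 in normal glands (adjusted p 0.193), and one of Osm, a cytokine related to Lif, with a log2 difference of 2.34 (SE 0.84, adjusted p 0.260).

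Among the cytokine receptors, 2 of 19 genes rose on the sense strand, beside 14.4% of all sense probes called higher. Lifr, the receptor chain that binds Lif, had signals of 395, 545, 325 and 1487 in tumors against 97.2 and 77.2 in normal glands. Its log2 difference was 2.71 (SE 0.67, adjusted p 0.0414), with tumor 4 well above the other tumors. Ifnar1, a chain of the type I interferon receptor, had 329, 350.1, 282 and 486 in tumors against 102 and 41.9 in normal glands, a difference of 2.44 (SE 0.52, adjusted p 0.0299). On the antisense strand 0 of 21 receptor genes passed (limma; 11 of 84 probes at an unadjusted p of at most 0.05), and the smallest p were those of probes of Ghr, the growth hormone receptor (log2 difference 3.59, adjusted p 0.120), and Csf2rb2, an interleukin receptor beta chain of the mouse (3.47, adjusted p 0.176), each listed at 5 in both normal glands.

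Of the core of the pathway, Stat6, a transcription factor activated by interleukin receptors, had AFAS probes. The Stat6 AFAS probe with the smallest p had 77.1, 30.1, 40.5 and 46.6 in tumors and 5 in both normal glands (limma adjusted p 0.0557), which did not pass. Of the inhibitors the array held Ptpn11, which encodes the phosphatase SHP2, also known as a positive factor in growth factor signals. Its sense probe rose, with 589, 372, 400.4 and 1013 in tumors and 133 and 88.1 in normal glands (log2 difference 2.33, SE 0.55, adjusted p 0.0378), and 0 of its 5 AFAS probes passed (limma; 0 at an unadjusted p of at most 0.05), the smallest p being that of a probe with a log2 difference of -1.82 (SE 1.30, adjusted p 0.540).

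Among the known targets and partners of PIM kinases, 1 of 6 genes rose on each strand, in both cases Cdkn1b. On the antisense strand this was 1 of 33 probes. Over all probes 14.4% (sense) and 0.457% (AFAS) were called higher, and nothing is read from 1 gene. Cdkn1b encodes p27, which PIM kinases phosphorylate. Its sense probe had signals of 3454, 2408, 1485 and 4536 in tumors against 470.1 and 246 in normal glands, a log2 difference of 3.01 (SE 0.59, adjusted p 0.0251). Its AFAS probe 2 had 65.1, 109, 69.8 and 78.1 in tumors and 5 in both normal glands (adjusted p 0.0273). The call was lost with a floor of 20, where the log2 difference was 1.98 in place of 3.98. Tumors and normal glands did not overlap with either probe.

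Among the partners and receptor cargo of Stam, 2 of 6 genes rose on the sense strand, both receptor tyrosine kinases. Of all sense probes, 14.4% were called higher. Erbb3 had 1579, 1742, 2170.1 and 3608 in tumors and 669 and 444 in normal glands (log2 difference 1.98, SE 0.51, adjusted p 0.0414). Fgfr4, whose sense probe was linked by place alone, had 611, 505, 898 and 700.4 against 209 and 221, a difference of 1.63 (SE 0.44, adjusted p 0.0479). On the antisense strand 0 of 6 genes passed (limma; 4 of 22 probes at an unadjusted p of at most 0.05), and the smallest p were those of probes of Met (adjusted p 0.0557), which was listed at 5 in both normal glands, and Pdgfrb (log2 difference 1.66, SE 0.49, adjusted p 0.193).

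The calls in the lists depended on single arrays and on the scaling. On the sense strand 8 genes were called with all arrays, 0 without tumor 1, 7 without tumor 2, 13 without tumor 3, 0 without tumor 4, 1 without normal gland 1 (Lif) and 0 without normal gland 2. With each array divided by its 75th percentile or by its median, 2 genes were called, Lif and Cdkn1b. The antisense call of Cdkn1b was lost when tumor 3, tumor 4, normal gland 1 or normal gland 2 was left out. The log2 differences of the 8 called genes stayed positive under all of these settings.

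**Figure D4:**
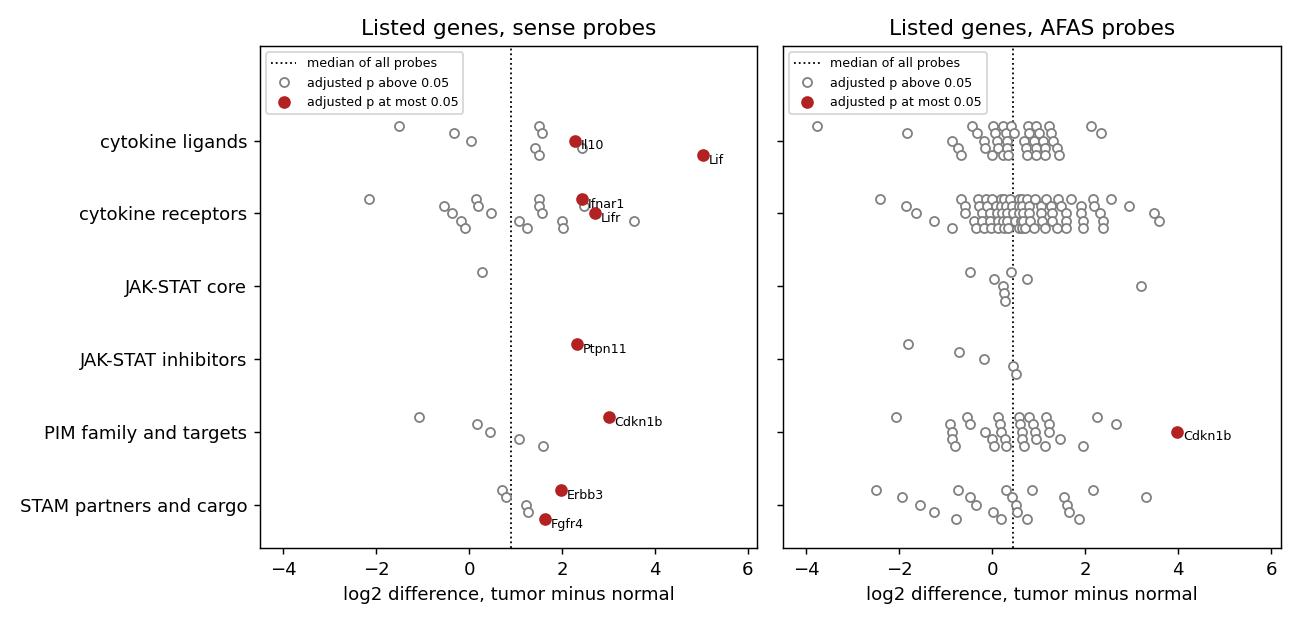
Tumor minus normal log2 difference of each probe of the listed genes, sense probes on the left and AFAS probes on the right, by list. Filled points passed the limma test at an adjusted p of 0.05 and are named, open points did not, and the dotted line is the median of all probes of the strand. All filled points lie to the right of that line, 8 on the sense and 1 on the antisense strand.

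Markers of the cell types that a mammary gland or tumor can hold moved with the groups to different degrees. Of 13 luminal markers 3 had a sense probe, and their summed log2 signal was 36.03 to 43.5 in tumors against 34.0 to 34.3 in normal glands; 1 of them, Krt18, rose (log2 difference 3.33, SE 0.56, limma adjusted p 0.0207). Krt19 had a log2 difference of 2.31 (SE 0.87), and Esr1, the estrogen receptor, one of -1.35 (SE 0.94), with 886, 2654, 731 and 7584 in tumors and 4339 and 5416 in normal glands, so that 3 of the 4 tumors were below both. Of 13 leukocyte markers 5 were measured, with sums of 46.1 to 56.9 in tumors and 44.7 to 48.2 in normal glands, which overlapped because tumor 3 was below normal gland 1. The sums also overlapped for 5 of 8 endothelial markers (42.8 to 49.4 and 43.1 to 46.8), for 2 of 8 fibroblast markers (13.2 to 15.3 and 11.0 to 15.7) and for 1 of 6 basal markers, Krt14 (10.8 to 12.3 and 11.3 to 11.9). The keratins Krt18, Krt19 and Krt14 were off the floor on all 6 arrays, and the listed casein and whey protein genes had no sense probe among those used. In these lists 0 further markers passed the limma test (3 of the 16 marker probes at an unadjusted p of at most 0.05, or 18.8%, Krt18 included, against 38.4% of all sense probes), no marker was at the floor in all tumors or in both normal glands, and 0 of 8 adipocyte markers had a probe. Their part in the signals of Pim1 and Stam was not tested.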

How the data were processed

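The authors took the processed signal intensity of the Agilent Feature Extraction software for each spot of 1-colour arrays, set values under 5 or not above background to 5, scaled each array by 1 factor and deposited the result as a table without probe names. Its 2156 entries were tied to named probes through the 4 tumor scanner files, which gave 2154 tied probes, 1750 AFAS and 404 sense, with 2 entries left out. A sense probe with another accession was linked to a gene by its place in the table. Signals were used as deposited. The comparison of groups used R 4.3.3 with limma 3.58.1 (a linear model on log2 signals with moderated variances, two-sided, separate fits for AFAS and sense probes, Benjamini-Hochberg adjustment over all probes of a strand, threshold 0.05), after the fit had been tested on simulated data. The simulated data had no floor, so that test does not cover probes with normal glands at 5. Tables and plots used Python 3.11.15, numpy 2.4.6, pandas 2.3.3 and matplotlib 3.10.9.

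The genes, pathway lists, marker lists and alternatives were chosen with earlier results of these data known. All probes of Pim1 and Stam are named; of each list and strand, the genes past the threshold (at most 3 with the largest difference), otherwise the 2 with the smallest p; and the 3 probes of other genes nearest in pattern. Some genes that this rule gives are not reported here. Alternatives were 4 other scalings, a floor of 20, probes with a mean signal of at least 100, limma with trend and robust, the methods' t-test on unlogged signals (the scale is not given in the paper), a block for the replicate number, single arrays left out, and for detection another flag and normexp correction with an offset of 50. The unscaled scanner signals were added after seeing the data. The number of arrays limits the precision. The files name no genome build, so no positions are given.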

Additional observations from a re-analysis of the deposited data

Results flagged for a closer look

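In 34 named probes the 4 tumors were checked for 1 tumor standing apart from the others, by the gap to its nearest neighbour as a share of the whole range, and 3 probes were marked; chance marks about 1 group in 20. The Stam sense probe was one of them, with tumor 1 at 810 and the other tumors at 500.2 to 553, a gap of 0.830 of the range, and its log2 difference between tumors and normal glands was 0.31 without tumor 1. The Flt3l AFAS probe had tumor 2 at 675 and the others at 35.9 to 141 (0.835 of the range). The Pms2 sense probe, among the 3 nearest in pattern to the Stam sense probe, had tumor 1 at 181 and the others at 99.1 to 105 (0.925). It was picked for that likeness, so its mark is not independent of the mark of the Stam sense probe.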

How the results depend on the processing

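The log2 differences of the 9 Pim1 and Stam probes kept their sign under the other scalings, the floor of 20, the replicate block and each array left out, except Stam AFAS probe 2, which was at -0.11 without normal gland 1. With a floor of 20 the difference was 3.42 for Pim1 AFAS probe 1 and 4.47 for Stam AFAS probe 1, and quantile normalization gave 4.38 for the former. Without single arrays Stam AFAS probe 1 ranged from 4.25 to 6.70. The Stam sense probe was at 0.061 with the 75th percentile, 0.15 with the same mean and 0.069 with quantile normalization. AFAS probes called numbered 8 in all, 4 with a floor of 20, 5 among signals of at least 100, 3 with quantile normalization and 0 to 15 without single arrays. Sense probes called numbered 59, and 23, 30, 33 and 29 with the 75th percentile, median, same mean and quantile normalization, and 0 to 89 without single arrays. Listed genes called on the sense strand numbered 8, and 2, 2, 5 and 4 under the same 4 scalings, and 0 to 13 without single arrays. On the antisense strand the count was 1, and 0 with a floor of 20, among signals of at least 100 and with quantile normalization, and 0 to 1 without single arrays. Of the Pim1 and Stam probes 2 were called, 1 with a floor of 20 and 0 to 1 without single arrays. The methods' t-test gave 0 for each of these 5 counts after adjustment, and without adjustment 159 AFAS probes, 11 listed antisense genes and 4 Pim1 and Stam probes. With the replicate block (tumors and normal glands of the same number) all 5 counts were 0. Tumors 3 and 4 have no normal gland of their number, so this fit rests on few arrays and nothing is read from its counts. The labels do not tell whether the numbers pair the samples. Deviations of the same-numbered arrays correlated at -0.016 and 0.048. These values cannot decide it, because with 2 normal glands the deviation of one is minus that of the other. The 34 spots well above background became 36 with the weaker flag, and with normexp correction the highest tumor was 1.66 times the lowest for Stam AFAS probe 1 and 2.16 times for Pim1 AFAS probe 1. Why the counts moved was not tested. Signals near the floor limit what normal glands can show.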
